A study of Mus musculus with 56 samples.

Results

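Hearts of night-fed mice were compared between ZT16, in the dark when food was given, and ZT4, in the light when food was withheld. Zeitgeber time (ZT) is the number of hours since lights on. The mice were adult C57BL/6J females, an inbred laboratory strain, aged 9 weeks, and they had been kept in 12 h of light and 12 h of dark with nighttime-restricted feeding (NRF) for 7 days. The 8 libraries of the comparison, 4 at each time, were all the NRF libraries labelled ZT4 or ZT16 among the 56 polyA RNA-seq libraries of the series, which also holds daytime-restricted feeding (DRF) and 7 times for each of the 2 regimens. Nothing but the sampling time differed between both groups by label, and light and food changed together between those times, so clock time, light and food cannot be told apart within NRF. Neither group was fed freely or kept in constant darkness. No label ties a library to a single animal, and the p-values therefore measure the spread between these libraries.

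Heart cells run a molecular clock of their own. BMAL1, the product of Arntl, pairs with CLOCK or NPAS2 and switches on the Period and Cryptochrome genes, whose proteins then inhibit that pair. REV-ERB and ROR receptors act on Arntl in opposite directions, and the factors DBP, TEF and HLF pass the rhythm on to output genes. The heart burns mainly fatty acids, takes up more glucose after a meal, and uses proteins such as PDK4 and ANGPTL4 to restrain glucose oxidation and circulating lipid uptake during a fast.

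The deposited table lists 22864 genes. Values are given as TPM, a level per exon length that is scaled to the same total in each library and was computed here from the whole read numbers behind the deposited values. Testing with limma covered the 13869 genes whose level averaged 1 TPM or more across the 56 libraries, and a difference is always ZT16 minus ZT4 on the log2(TPM + 1) scale, which understates the change of low genes. A gene is called higher or lower where its Benjamini-Hochberg adjusted p over all genes tested is under 0.05. The libraries held 31.3 M to 39.2 M reads at ZT4 and 37.6 M to 48.5 M at ZT16 (exact permutation test, two-sided p = 0.0571, where 0.0286 is the smallest possible). Mitochondrial genes took 21.1% ± 1.48 of the reads at ZT4 and 20.7% ± 0.878 at ZT16 (SD, n = 4). The 8 cardiomyocyte markers summed to 28117 to 33680 TPM at ZT4 and 29138 to 32262 TPM at ZT16. The 5 atrial markers summed to 128 to 1153 TPM at ZT4 and 236 to 4352 TPM at ZT16, and at both times the library numbered 2 was the highest. Bmp10, a defining atrial gene, stood at 88.8 TPM in that ZT16 library and at 0 to 0.159 TPM in the other 7. The 5 erythroid markers ran from 1667 TPM to 33088 TPM (ZT4 library 3) and from 3273 TPM to 32209 TPM (ZT16 library 1). The 4 mesothelial and epicardial markers summed to 7.91 to 58.9 TPM at ZT4 and to 12.6 to 104 TPM at ZT16, with a mean 2.55-fold higher at ZT16. The atrial mean was 3.26-fold higher at ZT16. That rested on ZT16 library 2, since the other ZT16 libraries held 236 to 654 TPM, and ZT4 averaged 421 TPM. The smallest exact permutation p of the 15 measures of library make-up was that of depth, and after adjustment over 15 measures tests of 4 against 4 can hardly pass, so these tests say little about whether make-up differed.

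Of the 13869 genes, 2260 were called, which is 16.3% of those tested. In all, 1096 genes were higher at ZT16 (7.9%) and 1164 were lower (8.39%). The share of calls that were higher was 48.5%, but it was 33.3% without ZT4 library 1, 65.6% without ZT4 library 4 and 36.3% on the deposited scale. Most differences were small, with a median size of 0.41 on the log2 scale. Only 116 genes were called with a difference of at least 1 on that scale, a change of 2-fold or more (0.836% of genes tested), with 74 higher and 42 lower. The 4 ZT16 libraries lay all above or all below the 4 ZT4 libraries for 1702 of the called genes, and in 16.7% of all genes tested. The median difference of all genes was -0.01.

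**Figure D1:**
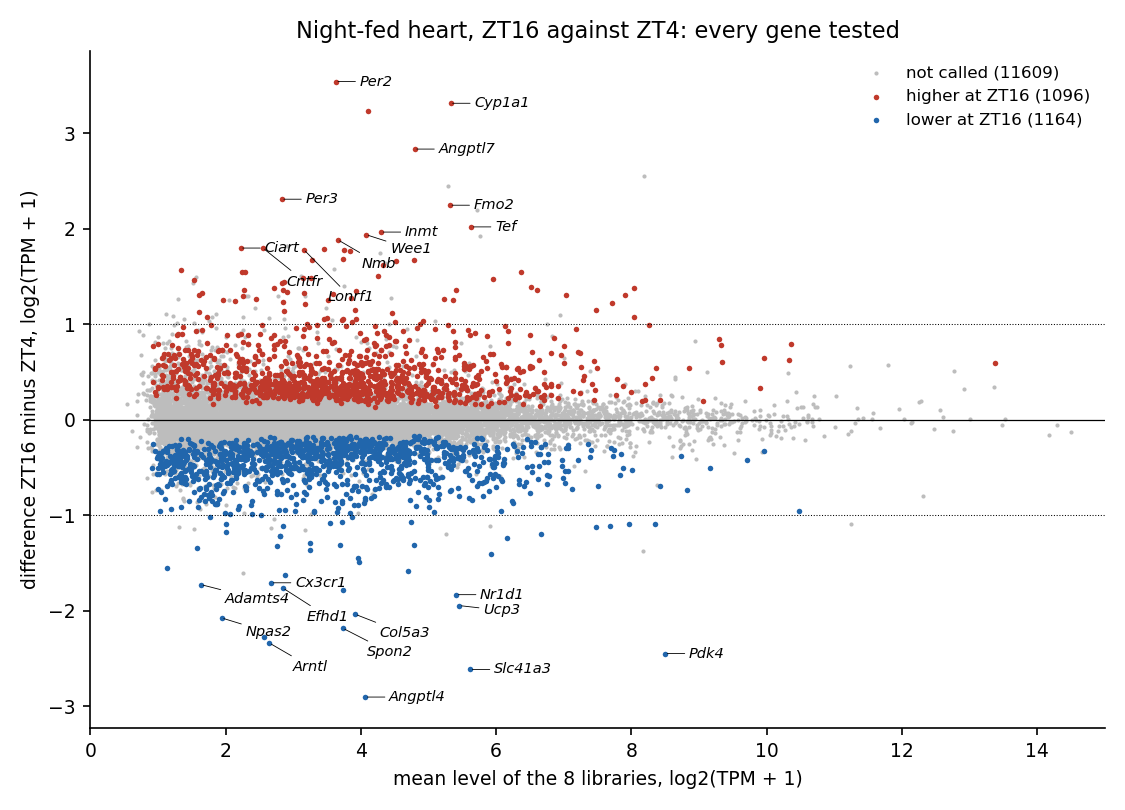
Mean level over the 8 libraries (x axis) against the difference between ZT16 and ZT4 (y axis), both on the log2(TPM + 1) scale, for the 13869 genes tested. Each point is a gene, red for the 1096 called higher, blue for the 1164 called lower and grey for the rest, and dotted lines mark a difference of 1 in either direction. Most called genes sit close to 0, and Per2 (3.54) and Angptl4 (-2.90) lie near the upper and lower ends.

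Clock genes gave the clearest pattern. All 19 members of the core clock and output list were tested, and 16 were called, 12 higher and 4 lower, against 16.3% of all genes. The list's median difference was 0.77, beside -0.01 for all genes. Period genes, Cryptochromes and the output factors were high at ZT16, and the activators of the loop were high at ZT4.

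Promoters are shown for the strongest rises (Per3 and Tef, after Per2, which has no promoter in the table used) and the strongest falls (Arntl and Npas2) on the clock list, because an E-box (CACGTG) is the site BMAL1 pairs are known to bind and a D-box (TTATGTAA) the site of DBP, TEF and HLF. Each line gives the 250 bases before the gene start, 5′ to 3′ on the gene's strand, as RefSeq lists them on GRCm38.p6. Capitals mark the matches to CACGTG or TTATGTAA on either strand. The windows lie at chr4:151044666-151044915 (minus strand) for Per3, chr15:81802423-81802672 (plus strand) for Tef, chr7:113207215-113207464 (plus strand) for Arntl and chr1:39194022-39194271 (plus strand) for Npas2.
Per3: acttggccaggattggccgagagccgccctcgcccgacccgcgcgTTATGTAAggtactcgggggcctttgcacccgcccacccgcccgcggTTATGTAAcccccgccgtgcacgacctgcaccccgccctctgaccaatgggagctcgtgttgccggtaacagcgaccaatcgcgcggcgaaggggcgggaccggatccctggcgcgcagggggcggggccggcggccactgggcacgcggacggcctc
Tef: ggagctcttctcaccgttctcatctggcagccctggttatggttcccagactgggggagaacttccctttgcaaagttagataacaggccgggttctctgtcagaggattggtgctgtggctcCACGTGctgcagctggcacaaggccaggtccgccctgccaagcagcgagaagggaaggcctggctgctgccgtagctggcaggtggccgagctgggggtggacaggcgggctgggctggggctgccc
Arntl: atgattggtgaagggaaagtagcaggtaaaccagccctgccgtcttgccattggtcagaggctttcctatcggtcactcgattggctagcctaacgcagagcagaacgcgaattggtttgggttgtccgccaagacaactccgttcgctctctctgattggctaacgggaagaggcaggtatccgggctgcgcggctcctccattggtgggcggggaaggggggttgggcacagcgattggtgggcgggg
Npas2: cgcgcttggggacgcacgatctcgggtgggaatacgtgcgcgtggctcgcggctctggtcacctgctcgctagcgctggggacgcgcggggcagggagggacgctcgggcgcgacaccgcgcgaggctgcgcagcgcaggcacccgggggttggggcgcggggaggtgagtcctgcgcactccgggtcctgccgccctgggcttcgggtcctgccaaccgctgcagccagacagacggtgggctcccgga

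The D-box letters of Per3 began at positions -205 and -158 from its start, and the E-box letters of Tef began at -127. The windows of Arntl and Npas2 held neither. These matches describe letters and not binding, and none of the motifs searched overlaps another. A promoter window was listed for 16 of the 19 clock genes, of which 5 held the E-box (Ciart, Bhlhe41, Cry1, Per1 and Tef) and 1 held the D-box (Per3). The E-box stood in 7.55% of the windows of genes called higher (62 of 821) and in 8.98% of those of genes called lower (77 of 857), and in 8.39% of all tested genes with a window (831 of 9907). The D-box stood in 1.34% of the windows of genes called higher (11 of 821), in 0.35% of those of genes called lower (3 of 857) and in 0.474% of all (47 of 9907). The receptor half-site AGGTCA, read by REV-ERB and ROR proteins, stood in 10.2% of the higher, 11.6% of the lower and 10.4% of all windows.

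Period genes encode the inhibitors of the loop. Per2 stood at 1.09, 0.642, 1.18 and 0.747 TPM in the ZT4 libraries and at 22.4, 31.2, 18 and 15.8 TPM in the ZT16 libraries. Every ZT16 library was far above every ZT4 library, and the mean was 23.9-fold higher, the highest log2 difference of any gene called (3.54 ± 0.24 SE, limma adjusted p = 2.5e-15). Per3 rose from 0.848, 1.61, 1.47 and 1.65 TPM to 10.6, 12.9, 10.8 and 8.99 TPM, by 2.31 ± 0.18 (limma adjusted p = 2.8e-13). Per1 stood at 2.25, 5.55, 4.94 and 8.56 TPM at ZT4 and at 12.8, 20.2, 23.8 and 21.8 TPM at ZT16 (1.77 ± 0.36, limma adjusted p = 0.00042). The groups did not overlap for any of the 3 Period genes, although Per1 varied more within a time than Per3.

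Cry1 and Cry2, the Cryptochromes that act with the Period proteins, rose together. Cry1 went from a mean of 7.64 ± 1.5 to 20.7 ± 0.656 TPM (SD, n = 4), and Cry2 from 8.21 TPM to 17.2 TPM, with differences of 1.34 and 0.98. Ciart, a further repressor of the loop, stood at 0.629, 1.95, 0.573 and 1.21 TPM at ZT4 and at 5.65, 6.54, 8.79 and 3.98 TPM at ZT16 (1.80 ± 0.36). Bhlhe41, which encodes the repressor DEC2, rose by 0.64, while its relative Bhlhe40 (DEC1) was not called (18.6 and 25.4 TPM, 0.45, limma adjusted p = 0.165).

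The PAR bZIP output factors were all higher at ZT16. Tef stood at 14.3, 22.2, 18 and 20.4 TPM at ZT4 and at 77.8, 88.7, 81.5 and 66.0 TPM at ZT16 (2.02 ± 0.16, limma adjusted p = 2.8e-13). Dbp stood at 7.80, 16.7, 10.5 and 13.5 TPM and at 43.4, 47.0, 48.8 and 24.7 TPM (1.68 ± 0.42, limma adjusted p = 0.0041). Neither gene's groups overlapped, and ZT16 library 4 held the least Dbp and the least Tef of its group. Hlf rose from 5.39 to 19.3 TPM (1.68). Nfil3, which competes with these factors for the D-box, was not called (0.34, limma adjusted p = 0.384).

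Arntl and Npas2 fell to low levels at ZT16. Arntl stood at 9.94, 9.06, 8.45 and 10.3 TPM at ZT4 and at 0.902, 1.05, 0.740 and 1.67 TPM at ZT16 (-2.34 ± 0.23, limma adjusted p = 1.9e-10). Npas2 stood at 4.38, 5.30, 4.39 and 6.82 TPM and at 0.483, 0.444, 0.601 and 0.326 TPM (-2.07 ± 0.18, limma adjusted p = 1.9e-12). The ZT4 mean was 8.67-fold that of ZT16 for Arntl and 11.3-fold for Npas2, with no overlap in either. Clock, the usual partner of BMAL1, fell less, from 11.1 to 7.15 TPM (-0.57).

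The REV-ERB genes moved in opposite directions. Nr1d1 (REV-ERBα) stood at 56.8, 75.5, 62.6 and 65.0 TPM at ZT4 and at 18, 23.0, 21.4 and 10.4 TPM at ZT16 (-1.83 ± 0.27, limma adjusted p = 3.2e-06). Its paralog Nr1d2 (REV-ERBβ) rose from a mean of 30.1 to 52.0 TPM (0.77). The groups did not overlap in either gene. Nr1d1 overlaps Thra on the opposite strand, which stood at 64.4 and 39.3 TPM, and whether the authors counted reads by strand is not given in the sources used here. Rora, which encodes an activator of Arntl, was not called (0.19, limma adjusted p = 0.216).

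**Figure D2:**
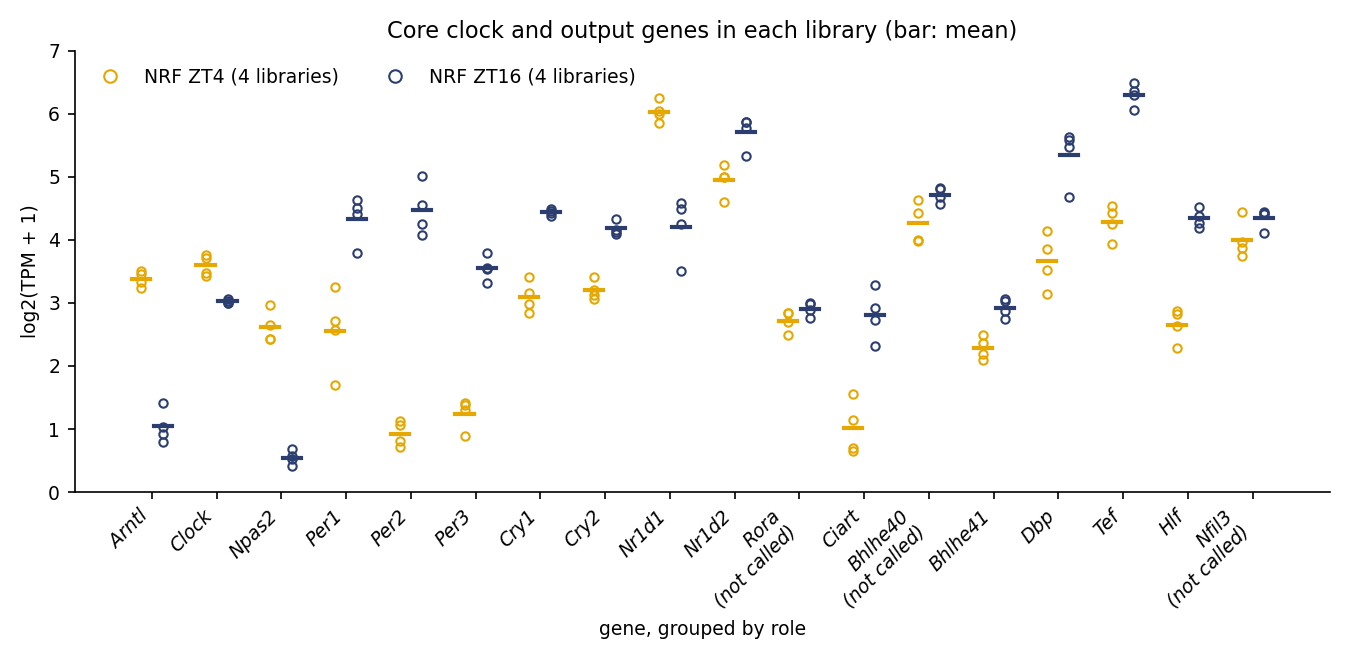
Level of core clock and output genes in each library (y axis, log2(TPM + 1)), with the 4 ZT4 libraries in yellow, the 4 ZT16 libraries in blue and a bar at each group mean. The ZT16 points of Per2, Per3, Tef and Dbp lie above all ZT4 points, those of Arntl, Npas2 and Nr1d1 lie below, and those of Nfil3 and Rora overlap.

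Genes that restrain glucose oxidation and handle fat in a fast were among the largest falls. Pdk4, the kinase that shuts off pyruvate dehydrogenase, stood at 229.7, 105.26, 1269 and 971 TPM at ZT4 and at 104.96, 86.1, 48.7 and 73.6 TPM at ZT16. ZT4 libraries 3 and 4 held most of it, and ZT4 library 2 lay only just above the highest ZT16 library. The ZT4 mean was 8.22-fold that of ZT16 (-2.45 ± 0.46, limma adjusted p = 0.00013), but with only the 8 libraries in the fit the adjusted p was 0.055.

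Angptl4, a fasting-induced inhibitor of lipoprotein lipase, stood at 15.3, 3.70, 45.4 and 54.1 TPM at ZT4 and at 2.39, 2.23, 1.49 and 1.3 TPM at ZT16. The ZT4 mean was 16-fold higher (-2.90 ± 0.58, limma adjusted p = 0.0003). Ucp3, a mitochondrial carrier linked to fatty acid use, stood at 32.0, 24.1, 104 and 126 TPM and at 18.8, 15.2, 10.6 and 12.5 TPM (-1.94 ± 0.43, limma adjusted p = 0.0011). In all 3 genes the groups did not overlap, libraries 3 and 4 were the high ones at ZT4 and library 2 was the lowest at ZT4.

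Of the 33 members of the fatty acid list, all tested, 9 were lower and 1 was higher (30.3% called, against 16.3% of all genes), and the median was 0.01, close to that of all genes. Besides Angptl4 and Ucp3, the thioesterase gene Acot1 fell from 15.8 to 7.41 TPM (-0.92) and Ehhadh, of peroxisomal oxidation, from 13.5 to 7.00 TPM (-0.81). Acot1 shares sequence with Acot2, which also fell (-0.61), and reads of such a pair are uncertain. Without ZT4 library 3 Acot1 was not called (-0.66, limma adjusted p = 0.0932). Chosen after their values were seen, Cpt1a, of the carnitine shuttle, fell by 0.61 and Cd36, a fatty acid transporter, fell by 0.33, and the exception was Ppara, the nuclear receptor for fatty acids, which rose by 0.49. Without ZT4 library 3 and ZT16 library 1, the libraries rich in erythroid markers, 3 members rather than 9 were lower. In that fit 809 of the 13869 genes tested were lower, against 1164 with all libraries.

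Of 29 genes of glucose uptake and glycolysis, 2 were higher and 1, Pdk4, was lower (10.3% called, below the 16.3% of all genes). Slc16a1, a lactate and pyruvate transporter, stood at 99.7, 93.0, 80.8 and 105 TPM at ZT4 and at 143, 150.04, 155 and 159 TPM at ZT16 (0.68 ± 0.11), with no overlap. Pgam1, phosphoglycerate mutase, rose by 0.53, a call lost in 7 of 19 other settings, among them without ZT4 library 2, 3 or 4 or ZT16 library 1 or 2 alone (limma adjusted p of 0.051 to 0.0626). After rescaling the libraries by median-of-ratios size factors, 4 members were higher, where 1548 of the 13869 genes tested were. Gapdh ran from 1.93 to 48.4 TPM at ZT4 and from 3.44 to 100.3 TPM at ZT16 and was not called (2.44 ± 1.25, limma adjusted p = 0.191), and reads of this gene are shared with many near-identical copies.

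Of 19 insulin and FOXO responsive genes, 4 were higher and 5 lower (47.4% called, against 16.3% of all genes). Txnip, an inhibitor of glucose uptake, stood at 464, 265, 601 and 456 TPM at ZT4 and at 175, 223, 166 and 252 TPM at ZT16 (-1.09 ± 0.30, limma adjusted p = 0.0097). The groups did not overlap. Irs2, an adaptor of the insulin receptor, rose from 4.33 to 10.1 TPM (0.97), Pik3r1, a regulatory subunit of PI3 kinase, rose from 21.4 to 35.9 TPM (0.71), and the cell cycle inhibitor Cdkn1a fell from 29.0 to 18.3 TPM (-0.63). Irs2 was not called without ZT16 library 3 (0.69, limma adjusted p = 0.0742), nor was Cdkn1a without ZT4 library 1 or ZT16 library 1 or 3 alone (limma adjusted p of 0.0563 to 0.0847). Without ZT4 library 3 and ZT16 library 1, 3 members were higher and 2 lower, where 814 and 809 of the 13869 genes tested were. Txnip was then not called (-0.86, limma adjusted p = 0.106).

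Of 15 glucocorticoid responsive genes, 6 were higher and 1 lower, 8 were not called, and the median was 0.38 (46.7% called, against 16.3% of all genes). Pdk4 was the exception. Zbtb16, a transcription factor induced by glucocorticoids, stood at 15.9, 6.45, 11.7 and 4.85 TPM at ZT4 and at 38.6, 57.8, 14.4 and 25.0 TPM at ZT16 (1.66 ± 0.38), and its groups overlapped. Fkbp5, a co-chaperone of the glucocorticoid receptor, stood at 3.67, 3.09, 3.46 and 3.98 TPM and at 13.2, 16.9, 8.54 and 9.66 TPM (1.48 ± 0.26, limma adjusted p = 4.8e-05), with no overlap. Per1 belongs to this list too. Without the libraries numbered 2, which were rich in atrial markers, 4 members were higher. The number of all genes called higher went from 1096 to 536 in that fit. Zbtb16 was then not called (1.22, limma adjusted p = 0.063).

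Cholesterol synthesis and uptake genes were lower together: 14 of 20 tested were lower, against 8.39% of all genes, 1 was higher, and the median was -0.37. Sqle, squalene epoxidase, stood at 1.34, 2.45, 1.48 and 2.25 TPM at ZT4 and at 0.738, 0.844, 0.996 and 0.855 TPM at ZT16 (-0.61 ± 0.11). Dhcr7, of the last step, fell by 0.61 and Hsd17b7 by 0.55. None of these 3 overlapped between times. The 1 higher member, named after its value was seen, was Acat2 (0.40). Without the libraries numbered 2, 9 members were lower and none higher, where 608 of the 13869 genes tested were lower in that fit.

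In the lipogenesis list, 4 of 19 were higher and 1 lower (26.3% called, against 16.3% of all genes). Dgat2, which makes triglycerides, stood at 199, 213, 194 and 213 TPM at ZT4 and at 413, 433, 403 and 387 TPM at ZT16, with no overlap (1.00 ± 0.11, limma adjusted p = 9.4e-09). Scd2, a fatty acid desaturase, rose by 0.56 and Acacb, acetyl-CoA carboxylase 2, by 0.39. Both calls were lost without ZT4 library 1 alone (limma adjusted p = 0.0602 and 0.0771), and that of Scd2 also without ZT4 library 3 or ZT16 library 2 alone. The exception was the desaturase Scd4, at 3.25, 8.85, 12.2 and 17.7 TPM and at 2.13, 2.23, 2.82 and 1.91 TPM (-1.63 ± 0.32). Without the libraries numbered 2, 2 members were higher and 1 lower, where 536 and 608 of the 13869 genes tested were. Summed adipocyte markers ran from 19.8 to 112 TPM at ZT4 and from 30.8 to 194 TPM at ZT16, with a mean 1.69-fold higher at ZT16. The 194 TPM was in ZT16 library 2, the other ZT16 libraries held 30.8 to 66.8 TPM, and ZT4 averaged 48.2 TPM. The part of adipocytes in this list was not tested.

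In the heat shock list 12 of 20 were higher, none was lower and 8 were not called, with a median of 0.41 (60% called, against 16.3% of all genes). Hspa1a, an inducible HSP70, stood at 1.25, 1.1, 1.53 and 1.58 TPM at ZT4 and at 7.28, 10.4, 3.45 and 4.37 TPM at ZT16 (1.55 ± 0.30), and its near-identical copy Hspa1b rose by 1.43. Dnaja1, an HSP40 cofactor, stood at 18.9, 15.4, 18.9 and 22.2 TPM and at 45.6, 48.4, 32.0 and 33.5 TPM (1.03 ± 0.22), and Hsp90aa1, an inducible HSP90, rose by 0.89. No groups overlapped in these 4 genes, and ZT16 libraries 1 and 2 were the highest in each. Without the libraries numbered 2, 5 members were higher, where 536 of the 13869 genes tested were higher in that fit. Neither Hspa1b (1.09, limma adjusted p = 0.0885) nor Hsp90aa1 (0.62, limma adjusted p = 0.0991) was then called.

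The 3 cold-induced genes were all lower, against 8.39% of all genes. Cirbp, the cold-inducible RNA-binding protein, stood at 31.3, 61.7, 33.8 and 52.1 TPM at ZT4 and at 21.8, 23.6, 26.3 and 27.5 TPM at ZT16 (-0.78 ± 0.18). Srsf5, a splicing factor, went from 87.6 to 44.7 TPM (-0.95) and Rbm3 from 29.8 to 20.5 TPM (-0.46, limma adjusted p = 0.046, a call lost in 9 of 19 other settings and with any of 5 single libraries left out, ZT4 library 2 or 4 or ZT16 library 1, 3 or 4). ZT4 libraries 2 and 4 were the high ones in all 3. Without the libraries numbered 2, 1 of the 3 was lower, and Cirbp was not called (-0.58, limma adjusted p = 0.0629). In that fit 608 of the 13869 genes tested were lower.

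The endoplasmic reticulum list had 4 of 20 members higher and none lower (20% called, near the 16.3% of all genes), and its median was -0.10. Herpud1, which acts in degradation of misfolded proteins, rose from 109.8 to 245 TPM (1.15 ± 0.13, limma adjusted p = 9e-09). The other 3 were the stress transcription factors Ddit3 (0.86), Atf6 (0.43) and Atf4 (0.33), and the call of Atf4 was lost in 7 of 19 other settings, among them without ZT4 library 1 or 3 or ZT16 library 1, 2 or 4 alone (limma adjusted p of 0.0525 to 0.108).

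Of 27 collagen genes tested, 11 were lower, 3 higher and 13 not called, with a median of -0.21 (51.9% called, against 16.3% of all genes). Col5a3 stood at 16.1, 22.0, 23.4 and 32.2 TPM at ZT4 and at 4.29, 4.44, 5.32 and 5.19 TPM at ZT16 (-2.04 ± 0.17, limma adjusted p = 1e-12). Col3a1, a fibrillar collagen, stood at 85.0, 133, 146 and 201 TPM and at 47.5, 57.6, 73.6 and 57.4 TPM (-1.20 ± 0.25), and Col4a2, of the basement membrane, fell from 246 to 109.8 TPM (-1.12). Col15a1 fell by 1.24. The groups did not overlap in these 4, and ZT4 library 1 was the lowest of its group in each.

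Fibroblast and vessel markers were read beside the collagens, since in whole heart fewer cells of a type and less RNA per cell cannot be told apart. The 6 fibroblast markers summed to 600 ± 90.1 TPM at ZT4 and 521 ± 49.9 TPM at ZT16 (SD, n = 4, exact permutation test, two-sided p = 0.171). Col1a1, Col1a2 and Col3a1 belong to both lists, so this sum is not separate from the collagens, and Col1a1 and Col3a1 were lower. The other 3 markers were not called, with Dcn at 311 and 352 TPM, Pdgfra at 16.4 and 18.8 TPM and Tcf21 at 17.7 and 15.7 TPM. The 7 endothelial markers summed to 1196 and 1009 TPM (exact permutation test, two-sided p = 0.114), with 1 lower, Kdr, the VEGF receptor (-0.76). Smooth muscle and pericyte markers summed to 832 and 669 TPM (exact permutation test, two-sided p = 0.0857), with 0 of 5 called by limma, 2 of 5 at an unadjusted p under 0.05 and 2 of 5 called by voom on the recovered reads or after median-of-ratios rescaling. The part of cell make-up in the collagen differences was not tested.

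Genes of cardiac conduction changed in both directions. Of 25 ion channel genes tested, 5 were higher and 4 lower (36% called, against 16.3% of all genes). Kcne1, a subunit of a slow potassium channel, stood at 12.2, 15.7, 9.90 and 12.2 TPM at ZT4 and at 4.04, 4.17, 4.32 and 5.42 TPM at ZT16 (-1.29 ± 0.16, limma adjusted p = 8e-08). Kcnj12, an inward rectifier potassium channel, stood at 14.6, 17.2, 15.8 and 14.7 TPM and at 25.9, 26.5, 25.6 and 25.1 TPM (0.69 ± 0.11, limma adjusted p = 5.4e-06). Neither gene's groups overlapped, and the 4 ZT16 libraries lay close together in both. Gja1, the gap junction protein connexin 43, fell from 106 to 65.5 TPM (-0.65, limma adjusted p = 0.0501 with only the 8 libraries in the fit), and the pacemaker channel Hcn4 had 0.43 with overlapping groups, a call lost in 6 of 18 other settings, among them without ZT4 library 1 or 3 or ZT16 library 2 or 4 alone (limma adjusted p of 0.0654 to 0.137).

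Among 22 calcium handling and adrenergic genes, 2 were higher and 5 lower (31.8% called, against 16.3% of all genes). Pde3a, a cyclic AMP phosphodiesterase, stood at 15.9, 18.3, 23.5 and 23.2 TPM at ZT4 and at 10.1, 12.9, 12.0 and 12.0 TPM at ZT16 (-0.72 ± 0.10). Prkar1a, a regulatory subunit of protein kinase A, fell from 303 to 209 TPM (-0.53, limma adjusted p = 1.2e-07), Slc8a1, the sodium-calcium exchanger, fell by 0.48, and Adcy6, an adenylyl cyclase, rose by 0.42. Of 18 sarcomere genes 2 were called (11.1%, below the 16.3% of all genes): Myh7, the slow myosin heavy chain, rose from 14.5 to 25.0 TPM (0.77) and Csrp3, a Z-disc protein, fell from 955 to 717 TPM (-0.42). The call of Slc8a1 was lost without ZT4 library 3 and ZT16 library 1 (-0.39, limma adjusted p = 0.0614), and that of Csrp3 without the libraries numbered 2 (-0.35, limma adjusted p = 0.0979). Myh7 overlaps the antisense gene Mhrt, which stood at 21.3 and 36.8 TPM.

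Among 24 immediate early genes 4 were higher and 1 lower (20.8% called, near the 16.3% of all genes), and Ier3, an early response gene linked to survival, stood at 43.2, 42.7, 37.0 and 41.2 TPM at ZT4 and at 122, 141, 113 and 114 TPM at ZT16 (1.55 ± 0.17, limma adjusted p = 1.5e-09). Atf3 rose from 4.55 to 11.5 TPM (1.21), Klf4 by 0.51, and Junb, which overlaps Prdx2 on the opposite strand, fell by 0.60. The call of Junb was lost in 8 of 19 other settings, among them without ZT4 library 2 or 4 or ZT16 library 1 or 4 alone (limma adjusted p of 0.0765 to 0.186), and that of Klf4 in 3, among them without ZT4 library 2 or ZT16 library 2 alone (limma adjusted p = 0.0777 and 0.0554). With median-of-ratios rescaling 8 members were higher, where 1548 of the 13869 genes tested were. Without the libraries numbered 2 there were 2 higher and 0 lower, where 536 and 608 of all genes tested were. In the NRF2 and antioxidant list, Nfe2l2, which encodes NRF2 itself, rose by 0.57 and Gclm, of glutathione synthesis, by 0.44 (limma adjusted p = 0.0576 with only the 8 libraries in the fit), while Gsr, glutathione reductase, fell by 0.35, and 14 of 17 were not called (17.6% called, near the 16.3% of all genes).

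Of 16 replication and proliferation genes 4 were lower and none higher, with a median of -0.59 (25% called, against 16.3% of all genes). Ccnd1, cyclin D1, fell from 59.8 to 37.8 TPM (-0.63), Mcm3 and Mcm2, of the replication helicase, by 0.63 and 0.55, and Cdk1, the mitotic kinase, from 3.12 to 1.12 TPM (-0.81). ZT4 library 4 was the highest of the 8 libraries in all 4 genes, at 6.49 TPM for Cdk1. The groups of Cdk1 overlapped, as did those of Mcm2. Without that library none of the 4 was called, at -0.46 for Cdk1 (limma adjusted p = 0.256), -0.41 for Mcm3, -0.35 for Mcm2 and -0.52 for Ccnd1. Leaving out other single libraries (ZT4 library 2 or ZT16 libraries 1, 2 or 4) also ended the call of at least 1 of the 4. Without the libraries numbered 2 none of the list was called, where 1144 of the 13869 genes tested were. In NAD metabolism, Nampt, the rate-limiting enzyme of the salvage route, stood at 70.3, 65.7, 73.8 and 66.4 TPM at ZT4 and at 115, 115, 112 and 113 TPM at ZT16 (0.71 ± 0.10), and 10 of 13 were not called (23.1% called, against 16.3% of all genes). Sirt1 had 0.22 with overlapping groups (limma adjusted p = 0.047), a call lost in 13 of 19 other settings and with any 1 of ZT4 libraries 1, 2 and 3 or ZT16 libraries 1, 2 and 3 left out (limma adjusted p of 0.0641 to 0.225), and Sirt6 had -0.28, a call lost in 5, among them without ZT4 library 2 or 4 or ZT16 library 2 alone (limma adjusted p of 0.0651 to 0.0949).

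Of 11 iron uptake and recycling genes, 1 was higher and 1 lower, a share of 18.2% that is near the 16.3% of all genes. Tfrc, the transferrin receptor, stood at 38.6, 60.3, 18.7 and 50.7 TPM at ZT4 and at 18.5, 19.8, 21.2 and 20.7 TPM at ZT16 (-0.92 ± 0.26). ZT4 library 3, the library with the most erythroid markers, held the least Tfrc of its group and overlapped the ZT16 range, and without ZT4 library 2 or 4 alone the call was lost (limma adjusted p = 0.0788 and 0.0506). Steap3, an iron reductase, rose by 0.32. Autophagy had 3 of 22 members higher (Tfeb 0.38, Sqstm1 0.35, Atg4d 0.30) and 2 lower, among them Wipi1 (-0.36), and of 9 mTORC1 inhibitors Sesn1 (0.40) and Tsc1 (0.26) were higher. The shares called, 22.7% and 22.2%, were near the 16.3% of all genes. Without ZT4 library 3 and ZT16 library 1 none of the 9 was called, where 1623 of the 13869 genes tested were. The call of Tsc1 was also lost without ZT4 library 1 or ZT16 library 3 alone (limma adjusted p = 0.0851 and 0.0642).

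Few members of the housekeeping lists were called. Of 85 cytosolic ribosomal protein genes 1 was lower (Rps4l, -0.48, limma adjusted p = 0.054 without ZT4 library 2), of 38 proteasome genes 1 was lower (Psmd9, -0.23, a call lost in 7 of 19 other settings, among them without ZT4 library 2 or 4 or ZT16 library 1 alone), and of 20 genes of branched-chain amino acid catabolism 1 was higher (Dbt, 0.37). None of the 79 nuclear-encoded respiratory chain genes and none of the 13 protein-coding genes of the mitochondrial genome was called by limma, voom or limma after median-of-ratios rescaling, and 4 and 1 of them had an unadjusted p under 0.05 in limma. The ribosomal and transfer RNA genes of the mitochondrial genome are on no list, and 7 of the 21 tested were higher, against 7.9% of all genes, and 0 lower. The transfer RNA genes mt-Tm (1.38), mt-Ti (1.3) and mt-Tq (1.22), named after their values were seen, were among them, and mt-Ti and mt-Tq overlap on opposite strands. The libraries are polyA, and what reads of transfer RNA genes measure in them was not tested. Ribosome biogenesis had more, with 6 of 22 lower against 8.39% of all genes, and Fbl, Utp20 and Bop1 falling by 0.25 to 0.28. Without the 2 libraries highest in atrial markers, or without the 2 highest in erythroid markers, 2 members were lower. In those fits 608 and 809 of the 13869 genes tested were lower. The call was lost for Utp20 in 7 of 18 and for Fbl in 5 of 19 settings, among them leaving out ZT4 library 4 alone (limma adjusted p = 0.175 and 0.0602), and for Bop1 without ZT16 library 2 (limma adjusted p = 0.0644). Leaving out ZT16 library 1 alone also ended the calls of Utp20 and Fbl, as did ZT4 library 3 or ZT16 library 2 for Utp20 and ZT4 library 2 for Fbl. The 1 higher member was Ubtf, a factor of ribosomal RNA transcription (0.36). The list medians ran from -0.06 for ribosome biogenesis and the protein-coding mitochondrial genes to 0.05 for the amino acid genes.

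**Figure D3:**
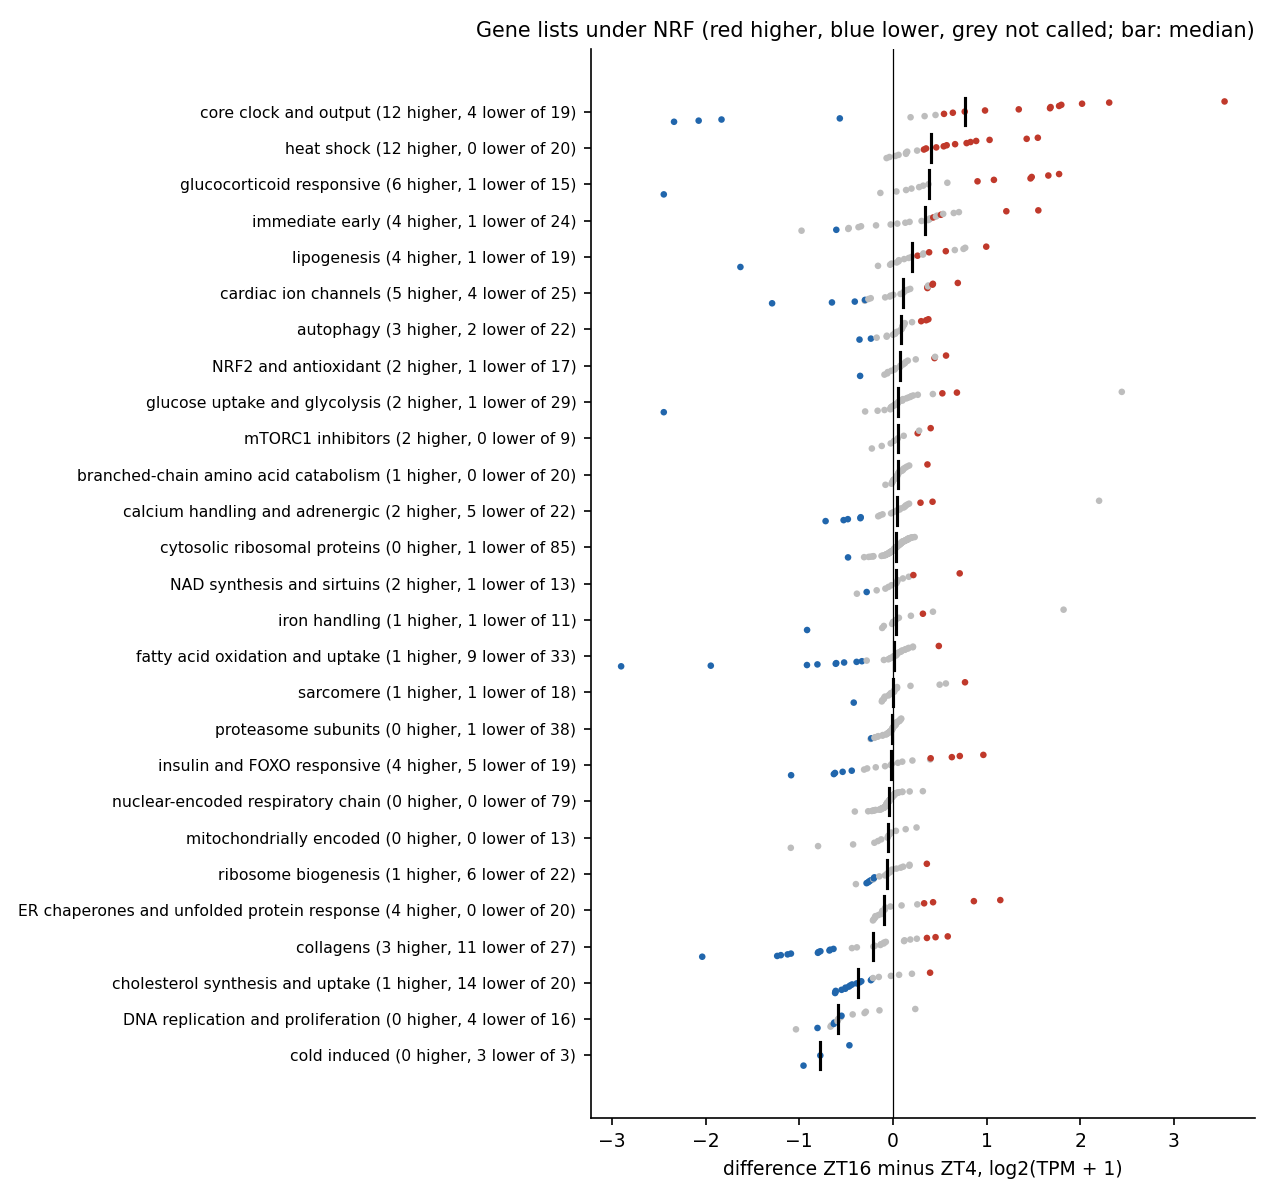
Differences between ZT16 and ZT4 under NRF (x axis, log2(TPM + 1) units) for the tested members of the gene lists (rows); each point is a gene, red where called higher, blue where called lower and grey otherwise, and a bar marks each list's median. The clock list (median 0.77) spreads from -2.34 to 3.54, cholesterol genes (median -0.37) sit mostly below 0, and heat shock genes (median 0.41) mostly above.

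Among the genes with the largest differences and no overlap were some from outside the lists. Angptl7, a secreted relative of Angptl4, stood at 4.0, 9.73, 8.38 and 2.84 TPM at ZT4 and at 34.1, 62.6, 45.1 and 47.5 TPM at ZT16 (2.83 ± 0.29, limma adjusted p = 7.4e-10). Fmo2, a flavin monooxygenase, stood at 10.7, 12.9, 19 and 8.61 TPM and at 56.5, 101, 47.8 and 54.0 TPM (2.25 ± 0.22). In the opposite direction Spon2, a matrix protein, stood at 25.0, 14, 17.5 and 26.5 TPM and at 3.97, 2.85, 2.35 and 6.30 TPM (-2.18 ± 0.37). Slc41a3, of a magnesium transporter family, stood at 75.1, 99.5, 68.5 and 90.2 TPM at ZT4 and at 11.2, 11.1, 11.7 and 17.3 TPM at ZT16, and its adjusted p was the smallest of all genes (-2.61 ± 0.16, limma adjusted p = 7e-17).

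Further rises of this size were in Wee1, a kinase that holds back mitosis (6.09 to 25.8 TPM, 1.94), Inmt, a methyltransferase (1.96), Nmb, a neuropeptide (1.88), Cntfr, a cytokine receptor (1.80), and Lonrf1 (1.78). Further falls were in Efhd1, a mitochondrial calcium-binding protein (10.1 to 2.30 TPM, -1.76), Adamts4, a matrix protease (-1.73), and Cx3cr1, a chemokine receptor of macrophages (8.82 to 1.96 TPM, -1.71). The 6 macrophage markers summed to 942 and 891 TPM, and 0 of them were called by limma or voom or had an unadjusted p under 0.05. Adamts4 overlaps a far more abundant gene on the opposite strand, and its reads are uncertain, and Nmb overlaps Sec11a on its own strand.

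Cyp1a1, a target of the aryl hydrocarbon receptor, had the next highest difference among named genes after Per2, and it rested on single libraries. It stood at 2.90, 2.67, 1.46 and 1.19 TPM at ZT4 and at 4.27, 165, 5.61 and 130.2 TPM at ZT16. ZT16 libraries 2 and 4 held nearly all of it, while the other two lay close to the ZT4 range without overlapping it. The difference was 3.31 ± 0.63 (limma adjusted p = 0.00017), and with only the 8 libraries in the fit its adjusted p was 0.083.

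The sampling times at ZT4 and ZT16 were then placed in the NRF day. The 5 other NRF times were not part of the comparison, and they include ZT0 and ZT24, the same clock hour. Of the 1096 genes called higher, 662 had their highest mean of the 7 times at ZT16, 222 at ZT12 and 136 at ZT20. Of the 1164 called lower, 847 had their lowest mean at ZT16, 164 at ZT20 and 133 at ZT12. Because these genes were chosen for a difference between ZT4 and ZT16, such shares favour both times by construction.

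Other libraries gave a separate reading. Between ZT20 and ZT8, also 12 h apart and taken from other libraries, 1791 of the 2260 called genes (79.2%) moved with the same sign, beside 60.9% of all genes, and 496 were called in the same direction, where 11.1% of all genes were called in either direction. Between ZT12 and ZT0, 1500 (66.4%) had the same sign, beside 56.3% of all genes, and 582 were called in the same direction, where 17% of all genes were called.

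Clock genes peaked at different times within that day. Mean Per2 over ZT0, ZT4, ZT8, ZT12, ZT16, ZT20 and ZT24 was 2.70, 0.916, 5.76, 23.3, 21.9, 9.55 and 2.81 TPM, so that ZT4 was its lowest and ZT16 close to its highest time. Dbp followed 4.0, 12.1, 110.4, 146, 41.0, 8.74 and 3.84 TPM, and Nr1d1 followed 16.3, 65.0, 124, 68.8, 18.2, 5.21 and 13.2 TPM. Both lay on a slope at ZT4 and ZT16, with peaks at ZT12 and ZT8. Arntl followed 12.3, 9.45, 2.64, 0.268, 1.09, 5.57 and 12.1 TPM, with its lowest mean at ZT12.

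Pdk4 and Angptl4 had their highest means at ZT4, where libraries 3 and 4 were the high ones. Pdk4 followed 209, 644, 325, 129, 78.4, 71.9 and 196 TPM, and Angptl4 followed 8.89, 29.6, 9.54, 4.59, 1.85, 3.64 and 8.82 TPM over the same 7 times. Ucp3 was high at ZT4 and ZT8 (71.6 and 68.5 TPM) and lowest at ZT16, while Acot1 and Scd4 had their highest means at ZT8. Cyp1a1 was at 0.925 to 6.63 TPM at every time but ZT16, where the mean was 76.2 TPM.

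**Figure D4:**
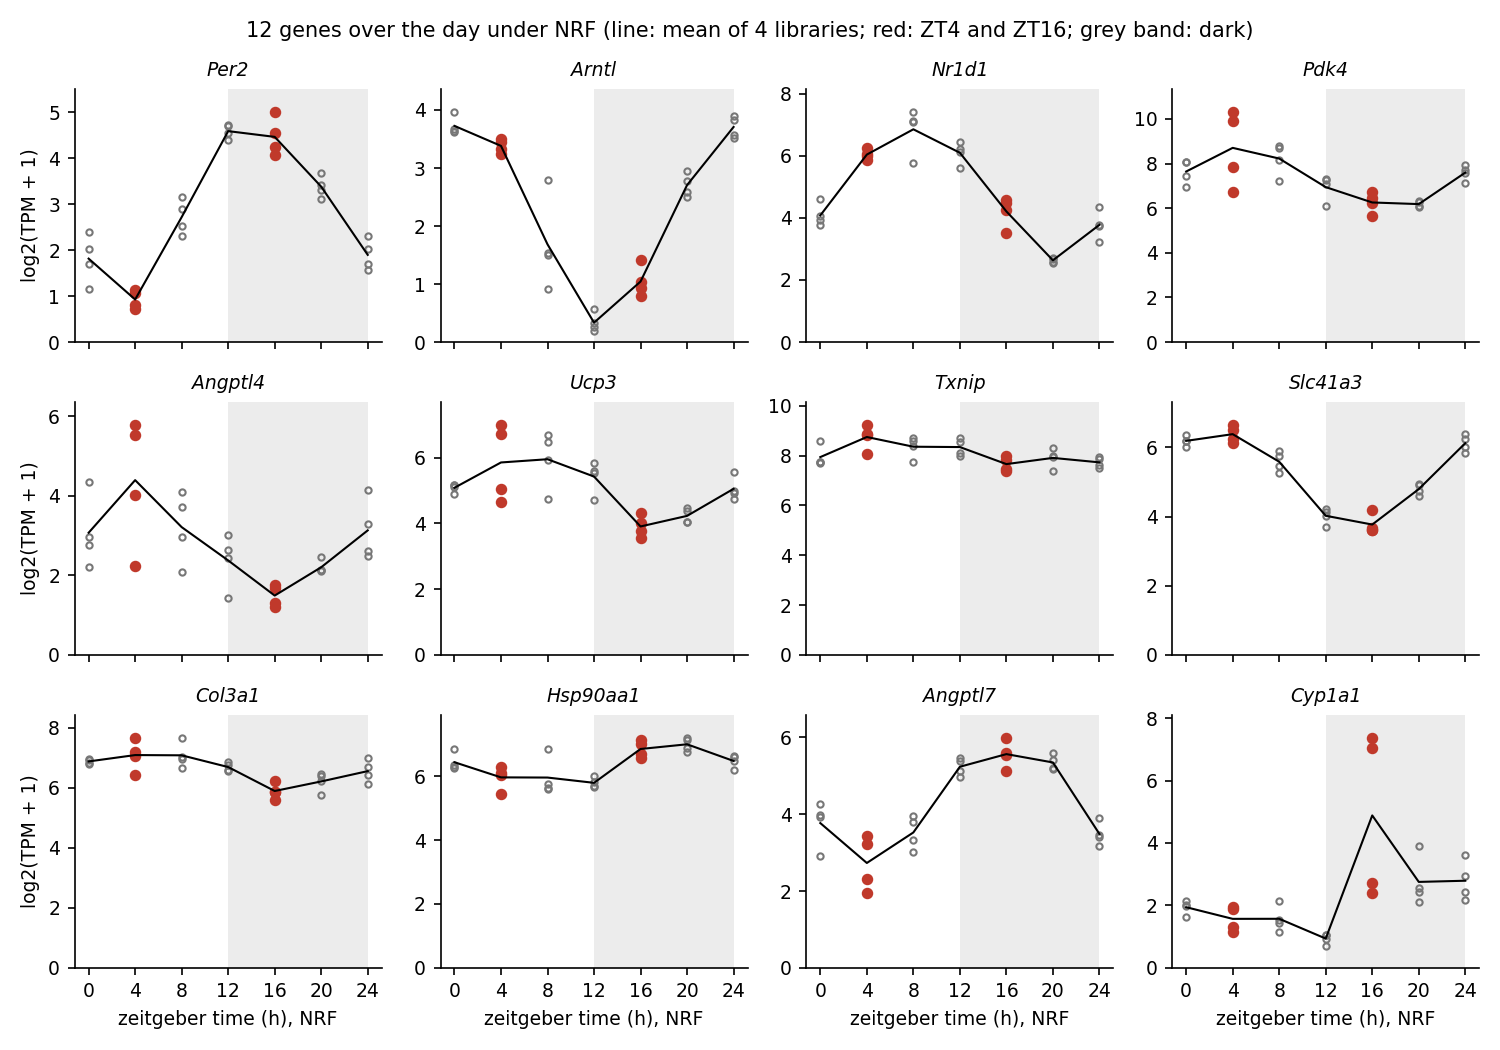
Level of 12 genes at the 7 NRF sampling times (x axis, ZT in hours; y axis, log2(TPM + 1)), with each library as a point, a line through the means of 4 libraries, ZT4 and ZT16 in red and the dark phase shaded. Pdk4 and Angptl4 are highest at ZT4, where their 4 libraries are widely spread, Per2 is lowest at ZT4, and Cyp1a1 stands out in 2 of its 4 ZT16 libraries.

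The same times were compared under DRF, where food was given in the light, with 8 other libraries of the same strain, sex and age. Under DRF 2541 genes were called between ZT16 and ZT4 (18.3%), 384 higher and 2157 lower, and the median of all genes was -0.09. Of the 2260 genes called under NRF, 688 were called in the same direction under DRF and 109 in the opposite one, and 1663 (73.6%) had the same sign, beside 60.04% of all genes. Genes called higher under NRF had a median difference of 0.04 under DRF, and genes called lower had -0.26, beside -0.09 for all genes. How these medians and the DRF split of 384 and 2157 depend on scaling was not tested.

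The difference itself was tested as the NRF difference minus the DRF difference. It was called in 1013 genes (7.3% of those tested), with 865 above 0 and 148 below. That split depended on scaling, since 57.9% rather than 85.4% of the calls lay above 0 after median-of-ratios rescaling, which moved the median of all genes from 0.08 to -0.01. Of the genes called under NRF, 501 (22.2%) were among the 1013, and of the 116 genes called with at least 2-fold change 41 were. The NRF difference is a term of this contrast, so both counts are raised by construction and are not comparable with 7.3%.

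Of the 19 clock genes, 12 had a called regimen difference, against 7.3% of all genes. Dbp stood at 12.1 and 41.0 TPM at ZT4 and ZT16 under NRF, and its DRF difference was -0.90 (regimen difference 2.57, limma adjusted p = 0.0045). Ciart had 1.80 under NRF and -0.30 under DRF (2.10). With only the 16 libraries of the contrast in the fit, neither Dbp nor Ciart had a called regimen difference (limma adjusted p = 0.0656 and 0.0782). Per2 had 3.54 and 1.69 (1.85, limma adjusted p = 0.00029). Arntl had -2.34 and -0.61 (-1.73). Nr1d1 had nearly the same fall under both regimens, -1.83 and -1.95, with a regimen difference of 0.12 ± 0.39 that was not called (limma adjusted p = 0.908).

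Among the fuel genes, Angptl4 had -2.90 under NRF and 1.34 under DRF, where it was not called (regimen difference -4.24, limma adjusted p = 0.00065). Txnip fell under NRF (-1.09) and rose under DRF (1.14, limma adjusted p = 0.0074), a regimen difference of -2.22. Pdk4 had -0.31 under DRF, and its regimen difference of -2.13 (limma adjusted p = 0.033) was lost in 11 of 26 other settings, among them without NRF ZT4 library 3 or 4 or NRF ZT16 library 3 or 4 alone (limma adjusted p of 0.0521 to 0.122). Slc41a3 had -0.46 under DRF and a regimen difference of -2.15 (limma adjusted p = 1.7e-08).

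A further group had close values under both regimens. Col5a3 had -2.04 under NRF and -1.77 under DRF, Col3a1 -1.20 and -1.27, Spon2 -2.18 and -2.02, Fkbp5 1.48 and 1.67, and Cx3cr1 -1.71 and -1.67, and in none of these was the regimen difference called. The heat shock gene Dnaja1 had 1.03 under NRF and -0.04 under DRF (regimen difference 1.07, limma adjusted p = 0.025), while Hspa1a had 1.55 and 0.30 with a regimen difference that was not called (1.25, limma adjusted p = 0.067).

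**Figure D5:**
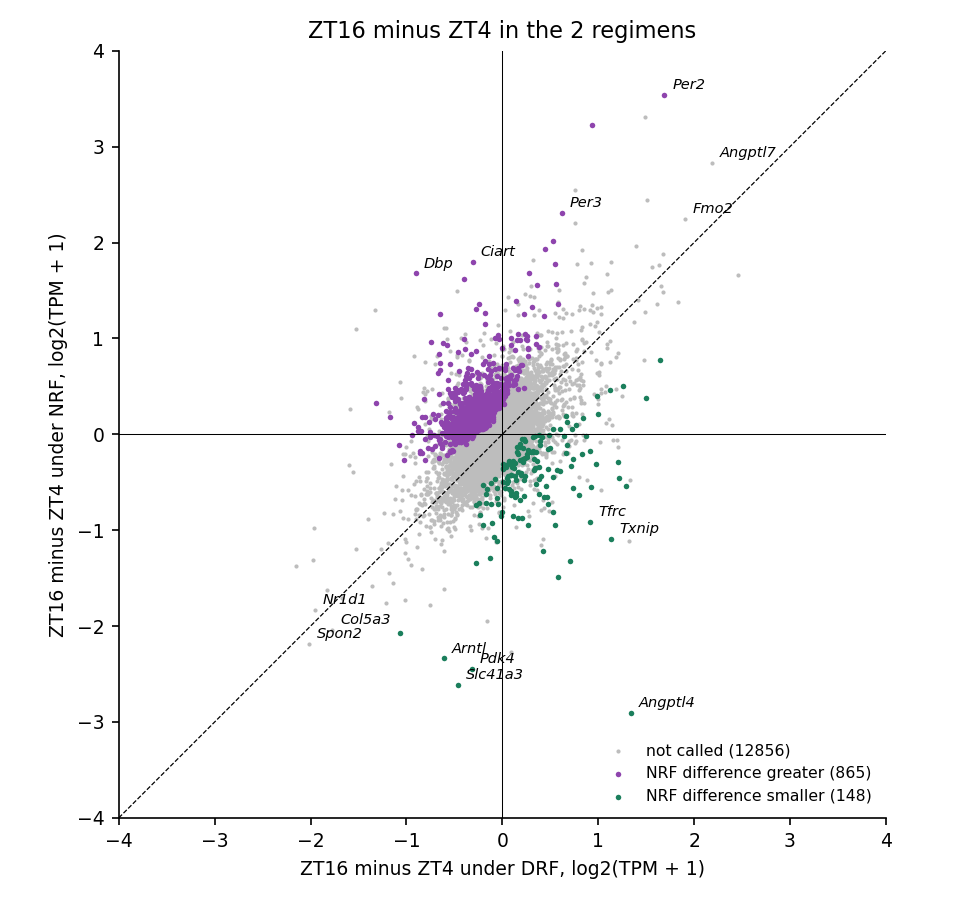
Difference between ZT16 and ZT4 under DRF (x axis) and under NRF (y axis), both on the log2(TPM + 1) scale, for the 13869 genes tested. Each point is a gene, purple for the 865 whose NRF minus DRF difference was called above 0 and green for the 148 called below 0. The dashed line marks equal differences. The sign counts, so green also holds genes that fell more under NRF, such as Slc41a3 (-2.61 under NRF and -0.46 under DRF). Dbp, Angptl4 and Txnip lie in quadrants of opposite sign, and Nr1d1 (-1.83 and -1.95) lies close to the line.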

How the data were processed

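PolyA RNA-seq libraries of heart were sequenced by the authors as 150-base read pairs. Per the labels' processing notes, reads were aligned to mm10 with HISAT2 (2.0.5) and counted with featureCounts (1.5.0-p3), and the strand setting and annotation are not given in the sources used here. The deposited values, titled TPM, are not linear. They were found to equal a constant of the library times log2(1 + a constant times the reads) divided by exon length. The constants were solved for each library, with exon lengths from GENCODE M21 (21993 genes) or from a search for the length that gives whole reads (859 genes, with 12 abundant genes treated apart), and 100% of 1.19775e+06 values tested came out within 0.002 of a read plus 1e-06 per read. The whole reads were turned into linear TPM over all 22864 genes. Because the deposited unit is neither a read count nor a linear level, the planned test on log2(TPM + 1) was run on these recovered values.

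The test was limma 3.58.1 (R 4.3.3, empirical Bayes with trend, 14 group means over all 56 libraries), with a pseudocount of 1 TPM, a minimum mean of 1 TPM, and Benjamini-Hochberg adjustment over the 13869 genes tested. Single values were compared with exact permutation tests (scipy 1.17.1), for which 4 against 4 cannot go below 0.0286. The regimen difference is a contrast of the same model. Library depths of 31.3 M to 48.5 M reads bound the counting error only.

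Named genes were the 12 strongest calls in each direction with no overlap between groups (predicted genes and pseudogenes left out), the whole clock list, up to 4 called members of each other list with the largest difference, and the 6 largest regimen differences among genes called under NRF. A few genes that the rule names are not reported here. Genes named outside this rule were chosen after their values were seen. Gene lists, markers and the comparison itself were chosen with earlier results of these data known. Gene lists share some members, among them Pdk4, Per1, Sesn1 and 3 collagens that are also fibroblast markers. Samples were grouped by the labelled regimen and time. The replicate numbers were not used as a block, since the deviations of same-numbered ZT4 and ZT16 libraries correlated at 0.02, 0.22, -0.21 and -0.08. Alternatives covered the pseudocount, the filter, median-of-ratios rescaling, voom on the recovered reads, the deposited scale, fewer libraries and each library left out. Promoter sequences are RefSeq's.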

Additional observations from a re-analysis of the deposited data

Results flagged for a closer look

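A single library stood far from the other 3 of its group in 11 of 244 groups of 4 examined, close to the 1 in 20 that chance gives. At ZT16 these were library 2 for Fmo2 (101 TPM) and Cntfr (12.6 TPM), library 4 for Slc41a3 (17.3 TPM) and library 3 for Nfil3, which was the lowest (16.2 TPM). At ZT4 they were library 4 for Atf6 (29.5 TPM) and library 1 for Ddit3 (17.4 TPM) and Pgam1 (74.6 TPM). Summed markers stood apart for the atrium in library 2 at ZT4 (1153 TPM) and at ZT16 (4352 TPM), for endothelium in ZT4 library 4 (1423 TPM) and for adipocytes in ZT4 library 3 (112 TPM), although ZT16 library 2 held more (194 TPM). Fmo2 and Cntfr were highest in the library that also held the most atrial markers, and the part of atrial tissue in them was not tested.

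The difference between ZT16 and ZT4 under NRF was called different from that under DRF, by the regimen contrast of limma, in 40 of the 107 named genes. Outside the clock list these genes were named by the size of the NRF difference, which is a term of the contrast, or (6 genes) of the regimen difference itself, so their count is not comparable with the 7.3% called among all genes. Values are the NRF difference minus the DRF difference on the log2(TPM + 1) scale.

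Among clock and output genes the values were 1.85 for Per2, 1.69 for Per3, 0.83 for Cry2, 2.10 for Ciart, 1.31 for Bhlhe41, 2.57 for Dbp, 1.49 for Tef and 1.41 for Hlf, and they were below 0 for Npas2 (-1.01), Clock (-0.41), Arntl (-1.73) and Rora (-0.48).

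Among fuel genes 3 were below 0, with -4.24 for Angptl4, -2.22 for Txnip and -2.13 for Pdk4, while Slc16a1 (0.76), Pgam1 (0.94), Dgat2 (0.75) and Scd2 (0.95) were above. In signalling and conduction, the value was -0.48 for Pde3a, -0.32 for Prkar1a, -0.62 for Slc8a1 and -1.16 for Kcne1, and 0.84 for Hcn4, 0.59 for Kcnj12 and 0.95 for Myh7.

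Among stress and growth genes the value was 0.43 for Nfe2l2, 0.93 for Gclm, 1.07 for Dnaja1, 1.14 for Ddit3, 0.58 for Atf4, 1.19 for Ier3, 0.57 for Sqstm1, 0.51 for Tfeb and 0.67 for Ubtf, and -0.59 for Sesn1. The rest were Wee1 (1.49), Lonrf1 (1.24), Slc41a3 (-2.15) and Tfrc (-1.83).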

How the results depend on the processing

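None of the 113 results on named genes changed sign under the alternatives run, and the signs of other called genes were not followed. The 2260 genes called between ZT16 and ZT4 became 1207 with only the 8 libraries in the fit and 1144 without the libraries numbered 2 (a setting chosen after seeing the data), and ranged from 1594 to 2292 with 1 library left out. The 116 genes of at least 2-fold became 219 with a pseudocount of 0.1 and 245 with voom, and ranged from 106 to 149 with 1 library left out; the deposited scale gives no such count. The 1013 regimen differences became 459 with only the 16 libraries concerned and 666 without the libraries numbered 2, and ranged from 605 (without DRF ZT16 replicate 4) to 1305 with 1 library left out. With the replicate block the counts were 2264, 115 and 991, and the numbers do not pair the libraries. Rescaling by median-of-ratios gave 3153 calls, 1548 higher and 1605 lower. The number called higher became 2 for fatty acid, 4 for glycolysis, 7 for glucocorticoid, 2 for cholesterol and 4 for autophagy genes. It became 6 for ion channel, 2 for sarcomere, 8 for immediate early, 3 for NRF2 and 1 for proliferation genes. The number called lower became 2 for the proteasome, 5 for ion channels, 13 for collagens and 7 for proliferation. Of 113 results on named genes, 40 lost their call in at least 1 of 19 settings (26 for regimen differences). The causes were not tested, apart from fewer libraries where these were left out. Libraries were deeper at ZT16 (42.6 M against 35.1 M reads on average), and with 4 libraries a group small differences could pass unseen.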

Other observations

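Further genes with at least a 2-fold difference, chosen after their values were seen, are given as single genes and stand for no group. Some of them, such as Mt1, may also be among the list members counted above. Ppp1r3b, which directs a phosphatase to glycogen, rose from 8.77 ± 0.964 to 29.2 ± 4.91 TPM (SD, n = 4; 1.62, limma adjusted p = 8.8e-06). Mid1ip1, a partner of acetyl-CoA carboxylase, rose from 53.9 to 138 TPM (1.35), Amd1, of polyamine synthesis, from 49.99 to 131 TPM (1.39), and Gsta3, a glutathione transferase, from 5.48 to 21.1 TPM (1.77). The glucocorticoid responsive Tsc22d3 rose from 31.9 to 90.3 TPM (1.47), and the metal-binding Mt1 from 168 to 357 TPM (1.08). Usp2, a deubiquitinase known as a clock output, rose from 21.1 to 52.1 TPM (1.27). The 4 libraries of each time did not overlap in any of these 7 genes.

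Other single genes fell. Fbn1, fibrillin 1, went from 38 ± 11.7 to 11.8 ± 2.67 TPM (-1.58, limma adjusted p = 9.6e-09), Mmp14, a membrane-bound protease, from 17.6 to 6.35 TPM (-1.31), and Adam19, a further protease, from 22.2 to 7.14 TPM (-1.49). Fscn1, which bundles actin, went from 88.1 to 31.8 TPM (-1.41) and Apln, the peptide apelin, from 35.9 to 15.8 TPM (-1.07). Rrad, a small GTPase that restrains calcium channels, went from 280.3 to 131 TPM (-1.11). The groups did not overlap in these 6 genes.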
